A study of Mus musculus with 2 samples.

Results

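The genes of antigen presentation on major histocompatibility complex (MHC) class I were described in 2 single-cell RNA libraries of mouse cortical microglia. There were 10 of them among the 31053 genes of the count tables: the heavy chains H2-D1, H2-K1, H2-Q7, H2-Q4, H2-T23 and H2-M3, the light chain B2m, the peptide loading genes Tap1 and Tapbp, and the immunoproteasome subunit Psmb8. They were taken by symbol, for their role, and each had 1 row in the tables. Every mouse was a male 5xFAD hemizygote of strain C57BL/6J, and 5xFAD mice carry human amyloid transgenes. Mice aged 4 months at the start (5.5 months in the labels) received 5 uL of Visudyne, a photosensitiser, into the cisterna magna. In the control group this was all. In the photoconversion group it was followed by 5 steps of transcranial photoconversion with non-thermal red light of 689 nm, which ablates meningeal lymphatic vessels. Both groups went through the same procedure again 3 weeks later, and the cortex was collected 3 weeks after that.

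There was 1 library per group, made from the cortex of 3 pooled mice after a sort on singlets in the SYTOX-Ly6G-CD45+CD11b+ gate. The comparisons ask how class I genes differed between these libraries and between cells at both ends of the microglial range within each. A difference between the libraries has no replicate check, so no test was made. A barcode counted as a cell when 200 or more genes were detected and no more than 10% of its unique molecular identifiers (UMIs, 1 per captured RNA molecule) came from mitochondrial genes. That kept 555 of 2000 barcodes in the control (median 2670 UMIs) and 317 of 2000 after photoconversion (median 3410 UMIs), with 2422711 and 1816177 UMIs in all. The libraries shared 27 barcode sequences, 0 of them among kept cells. All 12 microglial markers were detected in both libraries. Marker lists of other cell types summed to at most 700 UMIs in the control and 523 after photoconversion. Both maxima came from the B cell list, with Cd79a and Ms4a1 at 0 in both. The endothelial and mural list held 534 UMIs in the control and 440 after photoconversion. The oligodendrocyte list held 427 and 261, and the astrocyte list 419 and 266. The border macrophage list held 88 UMIs in the control and 18 after photoconversion, and the monocyte list 184 and 29. The dendritic cell list, which Flt3, Xcr1, Clec9a, Cd209a and Ccr7 make up, held 3 UMIs in the control and 0 after photoconversion.

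A class I molecule is a heavy chain paired with beta-2-microglobulin, the product of B2m, around a short peptide. The peptides come from the proteasome, of which Psmb8 is an interferon-inducible catalytic subunit. They are pumped into the endoplasmic reticulum by the Tap1 and Tap2 transporter and loaded with the help of tapasin, the product of Tapbp. H2-K1 and H2-D1 encode the classical chains shown to CD8 T cells, while H2-Q7, H2-Q4, H2-T23 and H2-M3 encode nonclassical chains. Microglia in amyloid tissue are known to shift from a homeostatic state, marked by the receptor gene P2ry12, towards a state in which Cst7, a protease inhibitor gene, is high.

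On mm10, 9 of the 10 genes lie on chromosome 17, which carries the mouse MHC, and B2m lies on chromosome 2. H2-K1 spans chr17:33996017-34000347 on the minus strand. H2-D1 spans chr17:35262730-35267499 and H2-Q7 chr17:35439155-35443773, both on the plus strand. Tap1 spans chr17:34187553-34197225 and Psmb8 chr17:34197721-34201454, next to each other on the plus strand. Tap1 overlaps Psmb9 and Psmb8 overlaps Gm20496, both on the opposite strand. B2m spans chr2:122147686-122153083 on the plus strand and overlaps Patl2 on the opposite strand. Tapbp spans chr17:33915899-33929292, H2-Q4 chr17:35379617-35385290 and H2-M3 chr17:37270220-37274484 on the plus strand, and H2-T23 spans chr17:36029773-36032855 on the minus strand. Tapbp overlaps Zbtb22 on its own strand and Gm19412 on the opposite strand, and on the opposite strand H2-Q4 overlaps Gm11131 and H2-T23 overlaps A930015D03Rik. All 10 are annotated as protein coding. Of these overlaps only that of Tapbp with Zbtb22 is on the same strand. Whether reads of an overlapping gene entered the counts was not tested.

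Stretches before the RefSeq starts of 3 of these genes are shown because the classical chains and the light chain form 1 molecule from 2 chromosomes. The 250 bases before each RefSeq start (GRCm38.p6) were searched on both strands for 5 motifs. The kB motif was searched only as the exact 10 capitals in the first pair of stretches below. These letters were found in the windows of H2-D1 and H2-K1, and in 0.0852% of 32851 RefSeq promoters. That share belongs to this exact spelling, and how common kB motifs of other spellings are was not tested. In both genes the 10 letters lay in almost the same sequence, with 29 of 30 bases identical between them (plus strand for H2-D1, minus strand for H2-K1).
H2-D1 kB, chr17:35262914-35262943: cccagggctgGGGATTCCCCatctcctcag
H2-K1 kB, chr17:34000438-34000467: cccagggctgGGGATTCCCCatctccacag

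Nearer the start, both genes held the CRE-like letters TGACGC (6.12% of promoters) and, 30 bases from end to end, a Y box, CCAAT or its complement ATTGG (33.8% of promoters). Of these 30 bases, 23 were identical, with the 2 motifs in capitals.
H2-D1 CRE-like to Y box, chr17:35262993-35263022: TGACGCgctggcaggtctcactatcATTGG
H2-K1 CRE-like to Y box, chr17:34000359-34000388: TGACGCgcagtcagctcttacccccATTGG

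The kB and CRE-like motifs were searched only in the exact letters above, so a different spelling of either would be missed. The B2m window had neither of these exact spellings. It held a match to the interferon-stimulated response element, which is GAAA, any 2 bases and GAAA (2.98% of promoters), 139 to 130 bases before the start, and a Y box 53 to 49 bases before it, both in capitals here on the plus strand.
B2m upstream, chr2:122147437-122147685: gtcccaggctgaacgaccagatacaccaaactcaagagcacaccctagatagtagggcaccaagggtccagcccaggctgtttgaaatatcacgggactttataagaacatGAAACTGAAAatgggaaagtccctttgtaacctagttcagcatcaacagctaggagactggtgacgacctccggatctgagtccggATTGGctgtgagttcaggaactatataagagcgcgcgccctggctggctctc

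The printed motifs do not overlap each other. Across the 10 windows a Y box was found in 9, CRE-like letters in 3, and the response element in 2, B2m and H2-T23. A GAS motif, TTCNNNGAA (7.02% of promoters), was found in 2, H2-M3 and Psmb8. Annotated starts differ between sources, and the H2-D1 stretches lie within the first exon of 1 annotated transcript. A match is a description of letters, not a site.

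Levels are given as CPM, UMIs per 1000000 UMIs of the cells summed, and every interval is an exact 95% interval for counting error only. H2-D1 measured 1754 CPM (1701 to 1807) in control cells and 2465 CPM (2393 to 2538) in photoconversion cells. The photoconversion library was therefore the higher by a ratio of 1.41 (1.35 to 1.47), and the intervals do not overlap. The median cell held 1230 CPM of H2-D1 in the control and 1833 after photoconversion. From the 10th to the 90th percentile, cells ran from 0 to 3431 and from 0 to 5285 CPM, so most of the 2 distributions overlapped. The 10 cells richest in H2-D1 held 12.7% of its UMIs in the control and 18.9% after photoconversion. Without these cells the ratio was 1.37, and with every cell weighing the same it was 1.52. H2-K1, the other classical chain, measured 882 CPM (845 to 920) in control cells and 1040 CPM (994 to 1088) in photoconversion cells. The 10 cells richest in H2-K1 held 12.3% and 23.6% of its UMIs, and its ratio of 1.18 (1.11 to 1.26) became 1.08 without them. With every cell thinned to 1000 UMIs it was 1.33, and at 500 UMIs it was 1.03. Here and below, leaving out 10 cells takes a larger share of the smaller side, here 317 photoconversion cells against 555 control cells. Such a cut can lower a ratio by itself, and a share held by 10 cells is larger where cells are fewer. Under the same cut the H2-K1 ratio fell further than that of H2-D1. How far either level rested on few cells was not tested.

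B2m measured 10132 CPM (10005 to 10259) in control cells and 11452 CPM (11297 to 11609) in photoconversion cells. The ratio was 1.13 (1.11 to 1.15), a narrow interval because B2m gave 24546 of the 33114 UMIs of the 10 genes in the control and 20799 of 28952 after photoconversion. Nearly every cell had a B2m UMI, 537 of 555 and 311 of 317. The summed genes, mostly B2m, came to 13668 CPM against 15941 CPM, a ratio of 1.17 (1.15 to 1.18). Without B2m the ratio was 1.27 (1.23 to 1.31).

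Among nonclassical chains, H2-Q7 had the widest gap, with 56.5 CPM (47.5 to 66.8) in control cells and 106 CPM (91.3 to 122) in photoconversion cells. The ratio was 1.87 (1.49 to 2.35) and was 1.72 without the 10 richest cells of each library. It rested on 137 and 192 UMIs. Of the 50-base words of the H2-Q7 transcript, 23.3% also occur in other genes, chiefly H2-Q6 and H2-D1, but only 0.443% of those in its last 500 bases do. Which part of the transcript was read is not given in the sources used here, so the split of reads among these chains is uncertain. The other nonclassical chains differed by less than their counting error. H2-Q4 gave 59.9 CPM against 55.6 CPM, a ratio of 0.929 (0.713 to 1.21). H2-T23, the chain of Qa-1, gave 147 CPM against 157 CPM, a ratio of 1.07 (0.911 to 1.2515). H2-M3, which presents formylated peptides, gave 101 CPM against 90.3 CPM, a ratio of 0.897 (0.731 to 1.10). At these depths differences of this size were not detectable. With cells thinned to 500 UMIs H2-T23 moved to 0.711 and H2-M3 to 1.68. H2-Q4 shares 33.7% of the words of its last 500 bases with other genes, chiefly Olfr1238, Olfr552 and Olfr967. For H2-T23 that share is 32.2%, chiefly with Rab33b, Hook2 and Vamp3. None of these named genes is a class I chain.

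Of the loading genes, Tap1 measured 35.9 CPM (28.8 to 44.3) in control cells and 53.4 CPM (43.3 to 65.2) in photoconversion cells, from 87 and 97 UMIs. The ratio was 1.49 (1.10 to 2.01), so the interval reaches close to no difference. Tapbp was level at 216 and 219 CPM, a ratio of 1.01 (0.886 to 1.16). Psmb8 was at 285 and 304 CPM, a ratio of 1.07 (0.951 to 1.19). Together the 3 genes gave a ratio of 1.07 (0.988 to 1.16), against 1.33 (1.28 to 1.38) for both classical chains and 1.12 (1.02 to 1.24) for the nonclassical chains.

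A gene counted as measured with at least 100 UMIs over both sides, and as higher or lower when its level was at least 25% higher or at least 20% lower. By that rule H2-D1, H2-Q7 and Tap1, 3 of the 10 genes, were higher after photoconversion, against 7.31% of 4009 genes measured, and 0 of 10 were lower, against 16.5%. With TMM scaling, which trims extreme genes before it sets the total, these 3 were still higher and 0 lower, against 9.8% and 12.2% of all genes. The median ratio was 1.10 over the 10 genes and 0.957 over all genes measured.

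**Figure D1:**
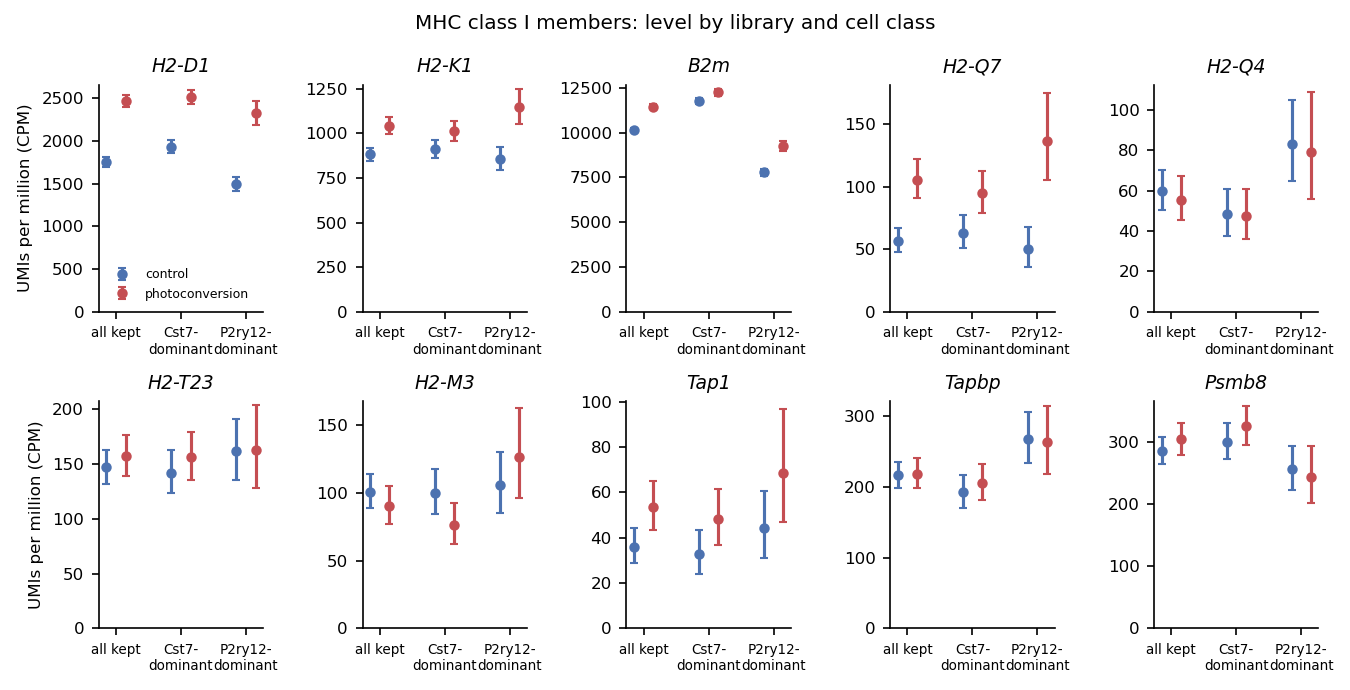
Level of each of the 10 class I genes in CPM (vertical axis, from 0) in all kept cells, Cst7-dominant cells and P2ry12-dominant cells of the control (blue) and photoconversion (red) library; bars are 95% counting intervals. In all kept cells H2-D1 sits at 1754 and 2465 CPM and H2-Q7 at 56.5 and 106 CPM with intervals apart, while H2-T23, Tapbp and Psmb8 have intervals that overlap.

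Cells were then divided by whether they held more Cst7 or more P2ry12 UMIs. Cst7-dominant cells were 207 in the control (37.3%) and 157 after photoconversion (49.5%), and P2ry12-dominant cells were 290 (52.3%) and 133 (42.0%). The remaining 58 and 27 cells were tied. These are ranges of a continuum and not cell types: 57 and 31 cells led by a single UMI. Depth differed between them, with medians of 4655 and 5852 UMIs in Cst7-dominant cells and 2206.5 and 2739 UMIs in P2ry12-dominant cells. Ribosomal protein genes took a median of 23.4% of UMIs in Cst7-dominant cells of both libraries, but 8.38% and 12.1% in P2ry12-dominant cells of the control and photoconversion library. Malat1, a nuclear RNA, took 0.288% and 0.458% in Cst7-dominant cells and 2.53% and 2.74% in P2ry12-dominant cells.

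For the classical chains, B2m and H2-Q7 the ratio between libraries had the higher value in P2ry12-dominant cells. There H2-D1 measured 1494 CPM in control cells and 2323 CPM in photoconversion cells. This ratio of 1.56 (1.43 to 1.69) was 1.42 without the 10 richest cells. In Cst7-dominant cells it was at 1935 and 2515 CPM, a ratio of 1.30 (1.24 to 1.37). H2-K1 showed the same order, with 856 and 1149 CPM and a ratio of 1.34 (1.20 to 1.503) in P2ry12-dominant cells. In Cst7-dominant cells its 910 and 1012 CPM gave a ratio of 1.11 (1.03 to 1.20), which was 0.980 without the 10 richest cells and 1.36 at 1000 UMIs per cell. The ratio intervals of both classes lie apart for H2-D1 and just meet for H2-K1. B2m gave 7772 CPM against 9246 CPM in P2ry12-dominant cells, a ratio of 1.19 (1.14 to 1.24). Its ratio in Cst7-dominant cells was 1.04 (1.02 to 1.06), from 11768 and 12246 CPM. H2-Q7 gave 49.99 CPM against 137 CPM in P2ry12-dominant cells, a ratio of 2.74 (1.83 to 4.14), and 63.4 CPM against 94.7 CPM in Cst7-dominant cells, a ratio of 1.49 (1.13 to 1.98). Only 42 and 64 UMIs of H2-Q7 lay in P2ry12-dominant cells, and 10 cells of the photoconversion library held 44 of the 64.

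Summed over the 10 genes, the ratio was 1.24 (1.21 to 1.28) in P2ry12-dominant cells and 1.08 (1.06 to 1.10) in Cst7-dominant cells. With 1 library per group, whether the photoconversion difference itself depends on the class was not tested. In P2ry12-dominant cells 3 of 9 measured genes were higher (7.84% of all genes measured there), H2-D1, H2-K1 and H2-Q7, and 0 were lower (17.1%). H2-K1 there no longer passed the rule without the 10 richest cells (1.22) or at 500 UMIs (1.08), and H2-D1 did not in thinned cells without a Cd74 UMI (1.21). In Cst7-dominant cells H2-D1, H2-Q7 and Tap1, 3 of 10, were higher (8.22%). H2-M3, at 100 CPM in the control and 76.3 after photoconversion, was lower, with a ratio of 0.762 (0.585 to 0.989), against 12.2% of all genes lower. At 1000 UMIs per cell that H2-M3 ratio was 0.967, and in such cells without a Cd74 UMI it was 1.15. In Cst7-dominant cells Tap1 no longer passed the rule with cells weighing equally (1.06) at 1000 UMIs (1.05) or without the 5% deepest cells (1.16). H2-D1 did not at 500 UMIs (1.10), without cells under 0.1% Malat1 (1.24) or in thinned cells without a Cd74 UMI (1.06). The ribosomal share of P2ry12-dominant cells differed between the libraries (8.38% and 12.1%), and its part in the class I values was not tested. Of the P2ry12-dominant cells, 5 in the control and 1 after photoconversion held at least as many UMIs of other cell types' markers as of microglial markers. Without such cells the H2-D1 ratio in P2ry12-dominant cells was 1.60. The endothelial and mural list was uneven, with 348 UMIs in the control and 9 after photoconversion in P2ry12-dominant cells. In Cst7-dominant cells it held 144 and 327 UMIs, and its part in the class I values was not tested.

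**Figure D2:**
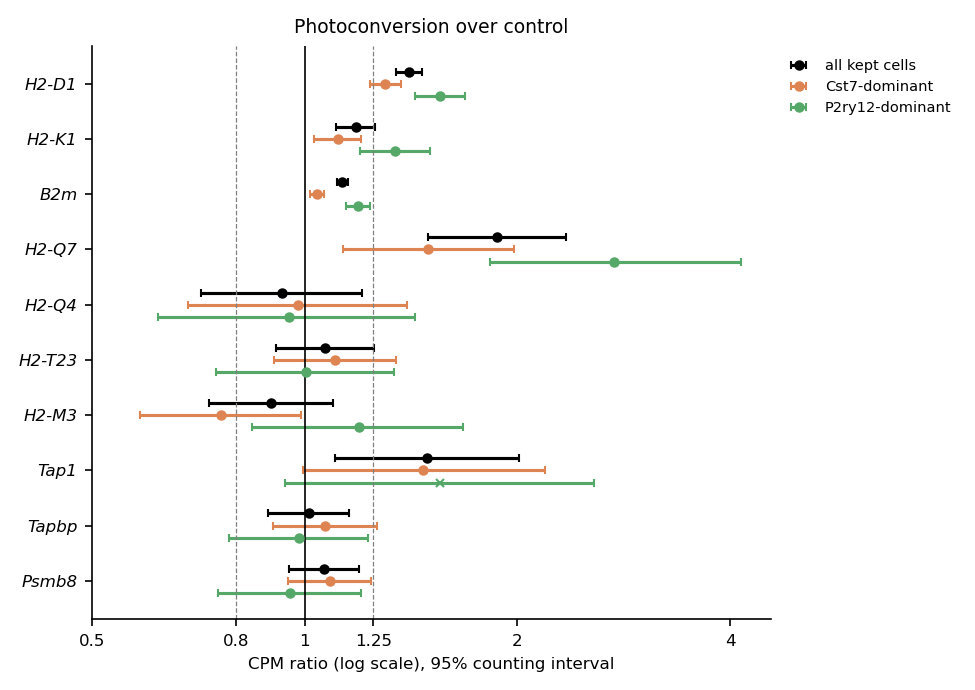
Ratio of CPM, photoconversion over control, for each class I gene (log scale) in all kept cells (black), Cst7-dominant cells (orange) and P2ry12-dominant cells (green), with 95% counting intervals; dashed lines mark levels 20% lower and 25% higher, and a cross marks a gene with under 100 UMIs. H2-D1, H2-K1, B2m, H2-Q7, H2-M3 and Tap1 have a higher point in P2ry12-dominant than in Cst7-dominant cells. The intervals of both classes lie apart for H2-D1 and B2m, just meet for H2-K1, and overlap for H2-Q7, H2-M3 and Tap1. H2-Q4, H2-T23, Tapbp and Psmb8 lie close to 1 in each.

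Within each library, the light chain stood further apart between the classes than the classical heavy chains did. B2m was higher in Cst7-dominant than in P2ry12-dominant cells, by a ratio of 1.51 (1.47 to 1.56) in the control and 1.32 (1.28 to 1.37) after photoconversion. H2-D1 gave 1.30 (1.21 to 1.39) in the control and 1.08 (1.01 to 1.16) after photoconversion. H2-K1 gave 1.06 (0.971 to 1.17) and 0.881 (0.797 to 0.976). Tapbp had the lower level in Cst7-dominant cells of both libraries, with ratios of 0.718 (0.600 to 0.859) and 0.781 (0.628 to 0.974). Over 14 alternative settings its ratio ran from 0.442 to 0.924 in the control and from 0.376 to 0.993 after photoconversion, below 1 in each. H2-Q4 was lower too, at 0.581 (0.412 to 0.820) in the control, and at 0.598 (0.392 to 0.925) from 99 UMIs after photoconversion. Psmb8 gave 1.17 (0.994 to 1.39) and 1.33 (1.08 to 1.65). With every cell weighing the same H2-D1 gave 0.883 after photoconversion and H2-K1 0.850 in the control, and at 1000 UMIs per cell they gave 0.938 and 0.817, so both directions turned. H2-Q7 went from 1.27 (0.872 to 1.87) in the control, an interval that holds 1, to 0.692 (0.5075 to 0.950) after photoconversion.

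The summed genes were higher in Cst7-dominant cells by 1.40 (1.36 to 1.43) in the control and 1.21 (1.18 to 1.247) after photoconversion. Without B2m these ratios were 1.12 (1.07 to 1.17) and 0.985 (0.937 to 1.04), so B2m carried most of the gap. In the control H2-D1, B2m and H2-Q7, 3 of 9 measured genes, were higher (23% of all genes) and H2-Q4 and Tapbp were lower (42% of all). After photoconversion B2m and Psmb8, 2 of 8, were higher (29.7%) and H2-Q7, H2-M3 and Tapbp were lower (34.3%), of which H2-M3, at 0.605, turned to 1.14 at 1000 UMIs per cell. These shares are near those of all genes and are no result about class I. Cst7-dominant cells were deeper, richer in ribosomal protein RNA and poorer in Malat1, by the medians given above, and the part of these in the ratios was not tested.

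TMM scaling raised every log2 ratio of this comparison by 1 amount, 0.36 in the control and 0.35 after photoconversion, so genes just below 1 crossed it. By the same rule, all genes then split into 41% higher and 22.4% lower in the control, and 49.1% and 19.6% after photoconversion. Under it H2-K1 was at 1.37 and 1.12, the second of which crossed 1. H2-T23 at 1.13 and 1.22 crossed it in both libraries, and H2-M3 at 1.22 did so in the control. B2m at 1.95 and 1.68 and Psmb8 at 1.51 and 1.70 stayed above, while Tapbp at 0.924 and 0.993 stayed below 1. Class I genes past the rule were then 5 higher (H2-D1, H2-K1, B2m, H2-Q7 and Psmb8) and 1 lower (H2-Q4) of 9 in the control, and 3 higher (H2-D1, B2m and Psmb8) and 1 lower (H2-M3) of 8 after photoconversion. The median gene itself moved from 0.877 to 1.13 in the control and from 0.970 to 1.23 after photoconversion. Relative to it no gene changes place: B2m lay above and Tapbp below in both libraries, and H2-K1 lay above in the control and below after photoconversion.

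**Figure D3:**
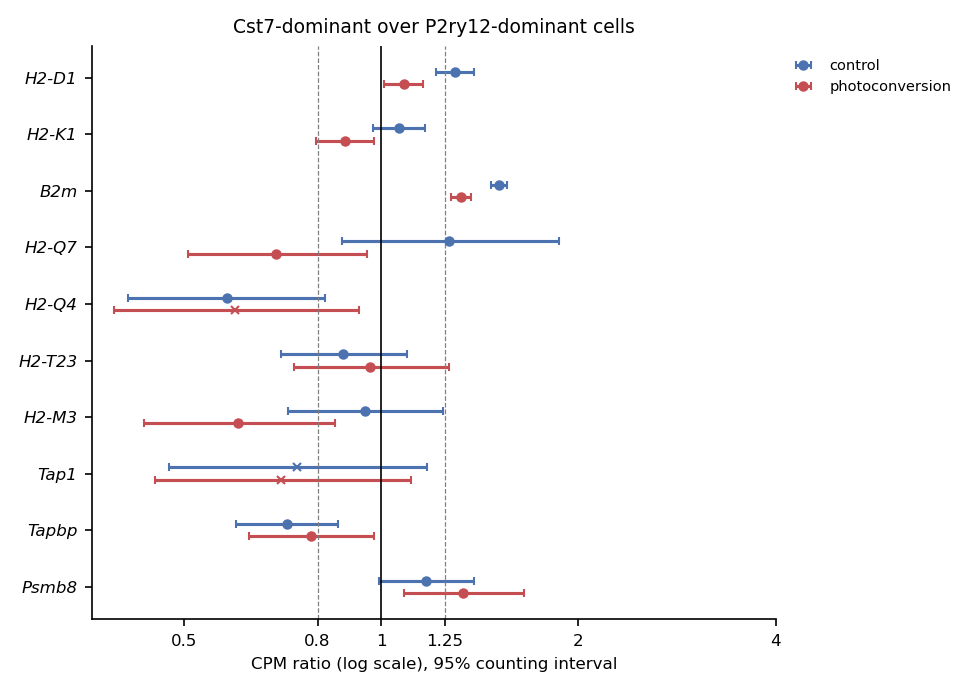
Ratio of CPM, Cst7-dominant over P2ry12-dominant cells, for each class I gene (log scale) in the control (blue) and photoconversion (red) library, with 95% counting intervals; dashed lines mark levels 20% lower and 25% higher, and a cross marks a gene with under 100 UMIs. B2m lies to the right in both libraries (1.51 and 1.32), Tapbp to the left (0.718 and 0.781), and H2-K1 near 1 (1.06 and 0.881); under TMM scaling every point moves right, and H2-K1 after photoconversion crosses 1.

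For shares of cells and for correlations, 1000 UMIs were drawn from each cell, which left out 116 shallower cells of the control and 45 after photoconversion. H2-D1 then had a UMI in 71.5% (67.1 to 75.7%) of the 439 control cells left and in 77.9% (72.5 to 82.7%) of the 272 photoconversion cells left. Without thinning, 82.2% and 88.0% of all kept cells had one, at median depths of 2670 and 3410 UMIs. H2-K1 had one in 48.5% (43.8 to 53.3%) and 57.0% (50.9 to 63.0%), against 68.8% and 78.5%. For H2-Q7 these shares were 3.64% (2.10 to 5.85%) and 8.46% (5.44 to 12.4%), against 14.4% and 21.8%. The share intervals of each of these 3 genes overlap between the libraries, though each share was the higher after photoconversion. Most nucleated cells express class I, so no cell type here serves as a background. The nearest measure is the RNA of barcodes with under 200 genes, in which H2-D1 stood at 1635 and 2071 CPM and B2m at 5027 and 5755 CPM.

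At that equal depth the genes were only loosely tied across cells. Spearman correlations are descriptions, since the cells of a library share its preparation and sparse counts pull them towards 0. H2-D1 and B2m correlated at 0.32 in the control and 0.30 after photoconversion, H2-D1 and H2-K1 at 0.21 and 0.29, and H2-K1 and B2m at 0.20 and 0.24. These were the 3 highest pairs of the 10 genes in either library. Of all pairs among the 1021 and 963 genes detected in 10% of cells, 0.760% and 0.887% had a higher correlation than H2-D1 with B2m. The median over all 45 pairs of the 10 genes was 0.05 for the control and 0.06 for photoconversion, with 35 and 37 pairs above 0, which is no finding in counts this sparse. Tap1, Tapbp and Psmb8 had correlations of at most 0.10 with any other of the 10 genes in either library. Without thinning the median over pairs was 0.18 and 0.21, a value that also carries each cell's depth.

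**Figure D4:**
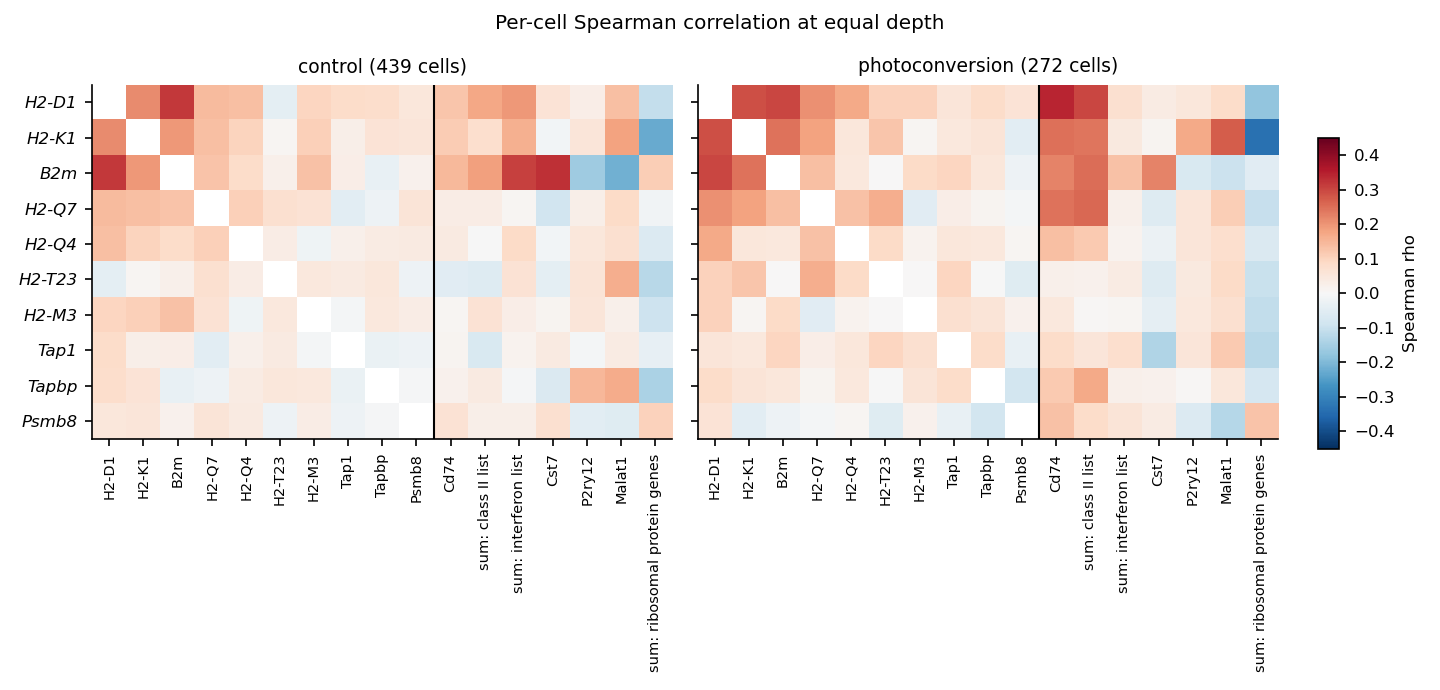
Spearman correlation across cells thinned to 1000 UMIs (colour, blue below and red above 0) of each class I gene, in rows, with the other class I genes, left of the line, and with reference genes and summed lists, right of it, in 439 control and 272 photoconversion cells. The block of H2-D1, H2-K1 and B2m is the reddest within the family (0.20 to 0.32), and the Cd74 column is redder after photoconversion, at 0.34 for H2-D1 against 0.13 in the control.

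Class II presentation serves CD4 T cells, and Cd74 encodes its invariant chain. Cd74 measured 853 CPM in control cells and 2477 CPM in photoconversion cells, a ratio of 2.904 (2.76 to 3.06), and the 10 cells richest in it held 65.3% and 57.4% of its UMIs. H2-D1 correlated with Cd74 at 0.13 in the control and 0.34 after photoconversion, H2-K1 at 0.12 and 0.25, B2m at 0.15 and 0.22, and H2-Q7 at 0.03 and 0.24. In the control 65 genes had a higher correlation with Cd74 than H2-D1 had, and after photoconversion 3 had. The higher value after photoconversion held within each class, with H2-D1 and Cd74 at 0.06 and 0.32 in Cst7-dominant cells and at 0.12 and 0.41 in P2ry12-dominant cells. For H2-K1 they were 0.18 and 0.33 in Cst7-dominant cells and 0.02 and 0.24 in P2ry12-dominant cells. The median over the 10 genes was 0.04 for the control and 0.13 for photoconversion. Cd74 had a UMI in 84 of 439 and 88 of 272 thinned cells, so a correlation in the control had fewer informative cells.

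The same relation is seen in UMIs. Control cells without a Cd74 UMI (355 cells) held 12 UMIs of the 10 genes per 1000 (11.6 to 12.4), those with 1 or 2 (65 cells) held 14.95 (14.0 to 15.9), and those with 3 or more held 16.0 (14.2 to 17.9). After photoconversion the values were 13.5 (13.02 to 14.1) in 184 cells, 15.4 (14.2 to 16.6) in 43 cells and 22.8 (21.4 to 24.2) in 45 cells. The step at 3 or more Cd74 UMIs was thus the larger after photoconversion, though that control group had only 19 cells. H2-D1 went from 1.59 to 2.17 to 2.37 UMIs per cell in the control and from 1.85 to 2.53 to 4.33 after photoconversion. The median full depth of the cells with 3 or more was 3456 UMIs in the control and 5217 after photoconversion, and its part in these values was not tested.

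Over all thinned cells the photoconversion over control ratio was 1.22 for the summed genes, 1.39 for H2-D1, 1.33 for H2-K1 and 1.19 for B2m. In thinned cells without a Cd74 UMI each was lower, at 1.13 (1.07 to 1.19) for the summed genes, 1.16 (1.01 to 1.33) for H2-D1, 1.16 (0.953 to 1.41) for H2-K1 and 1.15 (1.08 to 1.21) for B2m. H2-Q7 gave 1.24 and Tap1 1.02 in them. The summed ratio in such cells was 1.20 (1.12 to 1.28) when P2ry12-dominant and 1.01 (0.937 to 1.09) when Cst7-dominant. With 1 or 2 Cd74 UMIs the libraries were close, with a summed ratio of 1.03 (0.930 to 1.14), H2-D1 at 1.17 (0.902 to 1.51) and B2m at 0.955 (0.847 to 1.08), and the summed ratio was 0.929 (0.821 to 1.05) in the Cst7-dominant cells among them. In cells with 3 or more Cd74 UMIs the summed ratio was 1.43 (1.253 to 1.62) and that of H2-D1 1.83 (1.32 to 2.59), from 45 and 19 cells. A cell without a Cd74 UMI in 1000 can still express Cd74.

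**Figure D5:**
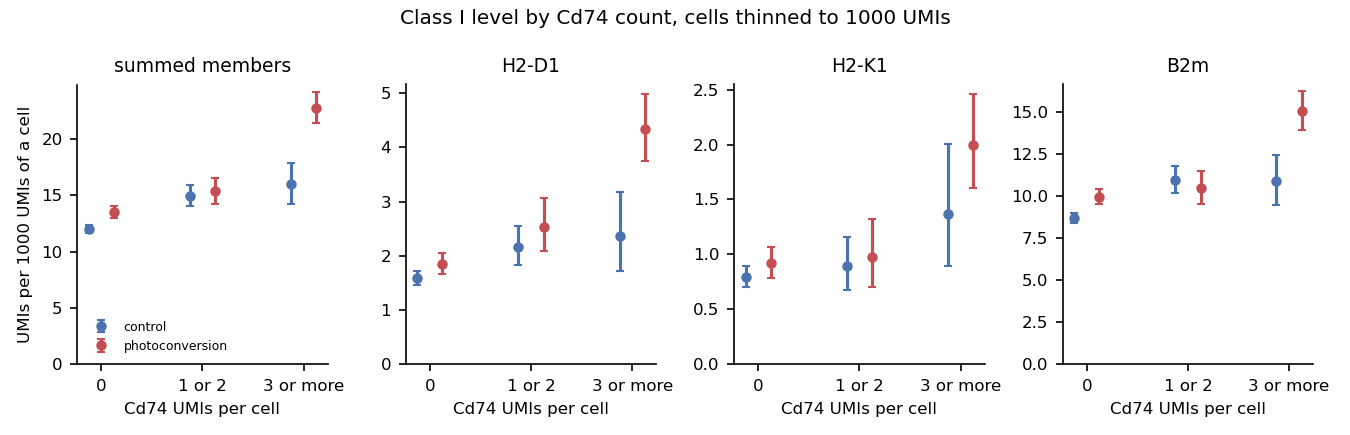
UMIs of the summed class I genes, H2-D1, H2-K1 and B2m per cell thinned to 1000 UMIs (vertical axes, from 0), in cells with 0, 1 or 2, and 3 or more Cd74 UMIs, for the control (blue) and photoconversion (red) library; bars are 95% counting intervals. With 0 Cd74 UMIs the libraries sit at 12 and 13.5 summed UMIs, and with 3 or more at 16.0 (19 cells) and 22.8 (45 cells).

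B2m correlated with Cst7 at 0.33 in the control and 0.22 after photoconversion, while H2-D1 (0.06 and 0.04) and H2-K1 (-0.01 and 0.01) stayed near 0. H2-K1 instead ran against the summed ribosomal protein genes, at -0.23 and -0.34, and ran with Malat1, at 0.18 and 0.27. B2m and Malat1 gave -0.22 and -0.10 over all cells, but 0.13 and 0.10 within Cst7-dominant cells and -0.13 and -0.17 within P2ry12-dominant cells. The B2m and Cst7 values were likewise 0.27 and 0.18 within Cst7-dominant cells and -0.05 and 0.04 within P2ry12-dominant cells. The part of RNA composition in these correlations was not tested. Among 884 genes detected in at least 10% of thinned cells of each library, the 5 most like the summed class I genes were Ctss, Ctsd, C1qb, Ctsb and Lyz2. Ctss and Ctsd, lysosomal proteases, had mean correlations of 0.32 over both libraries, C1qb, a complement gene, 0.30, and Ctsb and Lyz2 0.28, while Cd74 ranked 9.

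Of 26 other genes of the class I pathway, 24 were matched by symbol and 14 had at least 100 UMIs. Of these, 3 were higher after photoconversion and 3 lower, against 7.31% and 16.5% of all genes, with a median ratio of 1.001 and a ratio of 0.911 (0.879 to 0.944) for their sum. The 2 most abundant, the peptide loading chaperones Calr (718 and 597 CPM, 0.832, 0.771 to 0.898) and Pdia3 (550 and 425 CPM, 0.772, 0.706 to 0.844), had the lower level after photoconversion. The chain genes H2-T22 (1.59, 1.22 to 2.06) and H2-Q6 (1.52, 1.02 to 2.28, from 49 and 56 UMIs) had the most extreme ratios, both upward. The H2-Q7 transcript shares words with H2-Q6, and whether reads of one were counted for the other was not tested. The third higher gene was Psmb9, at 1.40 (1.16 to 1.70), and the other lower ones were Hspa5 at 0.767 (0.683 to 0.860) and Fcgrt at 0.738 (0.585 to 0.926), all named after their values were seen. Tap2, the partner of Tap1 in the transporter, was at 53.2 and 50.1 CPM, a ratio of 0.941 (0.712 to 1.24), also named with its value known.

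The immunoproteasome subunits Psmb8, Psmb9 and Psmb10 gave 51.9% of the UMIs of the 6 catalytic subunit genes (49.8 to 53.9%) in control cells and 54.2% (51.9 to 56.5%) in photoconversion cells, and these intervals overlap. Their constitutive counterparts, Psmb6 at 1.13 (0.998 to 1.29), Psmb5 at 0.841 (0.703 to 1.003) and Psmb7 at 0.860 (0.703 to 1.05), had 0 of 3 past the fold.

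Of 15 regulators, 5 were measured, of which 1 was higher and 0 lower, against 7.31% and 16.5% of all genes. Irf8, a transcription factor of myeloid cells, stood at 1.08 (0.987 to 1.19), Irf2 at 0.980 (0.785 to 1.22) and Nfkb1 at 1.14 (0.867 to 1.49). Nlrc5, the class I transactivator, had 4 and 5 UMIs, too few for a comparison. The interferon list had 6 of 15 measured genes higher and 2 lower, against 7.31% and 16.5% of all genes, with a median ratio of 1.11 but a ratio of 0.942 (0.907 to 0.978) for its sum. The lower ones, named after their values were seen, were Ifitm3 at 0.585 and Oas1a at 0.651. Ifit3 (1.82, 1.35 to 2.46) and Usp18 (2.10, 1.39 to 3.20) were above the fold, while the abundant Ifi27l2a (0.846, 0.786 to 0.911) and Lgals3bp (1.04, 0.951 to 1.13) were not. The summed class I genes correlated with the summed interferon list at 0.33 in the control and 0.14 after photoconversion, against 0.16 and 0.34 with Cd74. The class II list had 5 of 8 measured genes higher, against 7.31% of all genes, with a median ratio of 1.90, among them Cd74, H2-Aa at 2.55 (2.33 to 2.79) and H2-Ab1 at 2.47 (2.26 to 2.70). The others, named after their values were seen, were H2-Eb1 at 2.53 and H2-Oa at 1.33.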

How the data were processed

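Both libraries were 10x Genomics droplet single-cell preparations. The authors deposited unnormalised UMI counts for 2000 barcodes per library. The submitters' processing notes name bcl2fastq, Cell Ranger and mm10, and Cell Ranger was version 3.0.2 per the file headers. Reads shared by near-identical class I chains may be lost or misassigned in such counting. A table of the whole series was not used.

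The class I genes, gene lists and markers were chosen with earlier results of these data known. All 10 genes are described. From each other list the 2 most abundant and the 2 most extreme of the measured genes are named. A gene so chosen is not reported here. A cell of another marker type held at least as many UMIs of other cell types' markers as of microglial ones.

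UMIs were summed over cells and divided by their total (CPM). The 95% intervals are exact Poisson for levels, conditional binomial for ratios and Clopper-Pearson for shares. Cells share a library, so cell-to-cell and mouse-to-mouse variation are not covered. Thinning drew 1000 UMIs per cell without replacement (seed 1). Doublets were not removed, and leaving out the 5% deepest cells was tried. Depth and filters are given with the results. The ratio, interval and thinning steps were tested on simulated data. Alternatives covered filters, scaling (edgeR 4.0.16 in R 4.3.3 for TMM), weighting, thinning, folds and class cuts. Python 3.11.15, numpy 2.4.6, scipy 1.17.1, pandas 2.3.3 and matplotlib 3.10.9 were used. Coordinates come from GENCODE on mm10, and upstream sequences come from RefSeq on GRCm38.p6, in which all 10 genes were matched.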

Additional observations from a re-analysis of the deposited data

Results flagged for a closer look

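The barcodes with under 200 detected genes, 1340 in the control and 1608 after photoconversion, entered no ratio above. Only their H2-D1 and B2m levels were given. Summed class I genes in these barcodes gave 7929 CPM against 9277 CPM, a ratio of 1.17 (1.08 to 1.27). H2-D1 gave a ratio of 1.27 (1.06 to 1.52) from 240 and 257 UMIs, H2-K1 1.44 (1.08 to 1.94) from 86 and 105 UMIs, and B2m 1.14 (1.03 to 1.27) from 738 and 714 UMIs. Each of these 4 values, from data outside the main measurement, was drawn out by a rule. It asked for at least 100 UMIs over both libraries and a ratio interval wholly above 1. Only higher values after photoconversion, in genes with enough UMIs, could thus be drawn out. Psmb8 was the higher too, at 1.52 (0.828 to 2.83), while 6 of the 10 genes had the lower level after photoconversion, each from 29 UMIs or fewer in either library. Among them Tapbp gave 0.694 (0.358 to 1.31), H2-T23 0.723 (0.309 to 1.62) and H2-M3 0.766 (0.324 to 1.73), intervals that hold 1, and Tap1 had 3 UMIs in the control and 0 after photoconversion. The median barcode among them held 85.5 UMIs in the control and 58 after photoconversion. The share of kept cells' class I values that such RNA makes up was not tested.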

How the results depend on the processing

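No paired analysis was possible because each group had 1 library. For the same reason no replicate could be left out. The summed photoconversion over control ratio (1.17) stayed above 1 under all 12 alternatives and was 1.22 with TMM, 1.21 with median-of-ratios, 1.24 with cells weighing equally, 1.22 at 1000 and 1.22 at 500 UMIs per cell, 1.15 without the 10 richest cells, 1.22 without the 5% deepest cells, 1.14 at no more than 5% mitochondrial UMIs, and 1.13 in thinned cells without a Cd74 UMI, an alternative chosen after seeing the data. In P2ry12-dominant cells (1.24) it was 1.20 under the mitochondrial limit, 1.33 with equal weights, 1.31 at both thinnings, 1.16 without the richest cells and 1.20 without a Cd74 UMI, and in Cst7-dominant cells (1.08) it was 1.05 at 500 UMIs, 1.05 without the richest and 1.12 without the deepest cells, and 1.01 without a Cd74 UMI.

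The summed Cst7-dominant over P2ry12-dominant ratio in the control (1.40) and after photoconversion (1.21) was 1.80 and 1.54 with TMM, 1.80 and 1.495 with median-of-ratios, 1.36 and 1.10 with equal weights, 1.35 and 1.12 at 1000 UMIs, 1.43 and 1.29 without the richest cells, 1.45 and 1.26 without cells under 0.1% Malat1, 1.45 and 1.253 at a lead of 3 UMIs, 1.32 and 1.16 with classes cut on thinned cells, and 1.28 and 1.08 without a Cd74 UMI. After photoconversion it was also 1.26 under the mitochondrial limit and 1.10 at 500 UMIs.

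Of counts, the 3 genes higher after photoconversion became 1 at 500 UMIs per cell, 1 at a fold of 1.5 and 0 without a Cd74 UMI, and the 3 higher pathway genes became 0 at either thinning and 1 without a Cd74 UMI. Genes higher in Cst7-dominant cells, 3 in the control and 2 after photoconversion, became 5 in the control under TMM and under median-of-ratios, 1 in the control with equal weights, at 1000 UMIs, with classes cut on thinned cells and without a Cd74 UMI, 0 after photoconversion at either thinning and without a Cd74 UMI, and 1 and 0 at a fold of 1.5. Thinning and the Cd74 restriction leave fewer genes with 100 UMIs. Without thinning, median correlations of pairs were 0.18 and 0.21, and with Cd74 0.23 and 0.26. Of single genes named above as past the fold under the main settings, H2-M3 turned to the other side of 1 at 1.14 in Cst7-dominant over P2ry12-dominant cells after photoconversion (1000 UMIs) and at 1.15 in photoconversion over control in Cst7-dominant cells (without a Cd74 UMI). Genes within the fold crossed 1 more often; between libraries in kept cells at 500 UMIs, H2-M3 gave 1.68, H2-T23 0.711, Tapbp 0.718 and Psmb8 0.795. Values of a single gene from under 20 UMIs were not formed, which left out 23. Depth limits H2-Q7, H2-Q4, H2-M3 and Tap1 most, the 4 genes with the fewest UMIs.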

Other observations

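Barcodes with at least 200 genes but over 10% mitochondrial UMIs, 105 in the control and 75 after photoconversion, held B2m at 4682 CPM against 6633 CPM, a ratio of 1.42 (1.26 to 1.60). In the same barcodes H2-D1 gave 1809 CPM against 1930 CPM, a ratio of 1.07 (0.867 to 1.31), and the difference between the genes was not tested. The 58 and 27 kept cells tied between Cst7 and P2ry12, with medians of 766.5 and 707 UMIs, held H2-D1 at 1342 CPM against 2476 CPM, a ratio of 1.84 (1.41 to 2.39), and B2m at 6513 CPM against 11245 CPM, a ratio of 1.73 (1.53 to 1.95). Of their H2-D1 UMIs, 10 cells held 108 of 155 in the control and 88 of 96 after photoconversion. Of these tied cells, 13 of 58 and 9 of 27 had at least as many UMIs of other cell types' markers as of microglial markers, and the part of such cells in the values was not tested.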
